A study of Mus musculus with 10 samples.

Results

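The tumour suppressor gene Trp53 and 9 of its direct target genes were examined in mouse pancreatic cancer cell lines. The 10 genes (Trp53, Mdm2, Cdkn1a, Ccng1, Eda2r, Bax, Bbc3, Zmat3, Phlda3 and Trp53inp1) were chosen by name and were all found among the 49568 genes of the table. Messenger RNA was sequenced from 5 KPCAf/f lines (A1693, A1809, A1925, A2441 and A3992) and 5 KPC lines (A1081, A1620, A1625, A2031 and A2032), with 1 untreated library per line. In this field KPC denotes a pancreatic cancer model that carries a mutant or deleted Trp53. KPCAf/f adds a floxed gene, read here as Arid1a from the title. The lines come from pancreas and both groups share the KPC background. The Trp53 allele that they carry, the promoter that drove Cre, the ages of the mice and the passage of the lines do not appear in the labels. Nothing in the labels says whether each line came from its own mouse or is 1 clone, so p-values measure the spread between these lines.

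The p53 protein is a transcription factor that is kept at a low level by the ubiquitin ligase MDM2 and is stabilised when DNA is damaged or an oncogene is active. It then switches on genes that stop the cell cycle, repair DNA or start cell death, and Mdm2 itself, which closes a feedback loop. In tumours, a missense protein that cannot bind its DNA sites may accumulate without raising its targets. The level of Trp53 mRNA is not the level of active p53 protein, which was not measured here. The comparisons ask whether the 10 genes differ between KPCAf/f and KPC lines and whether the targets follow the Trp53 mRNA of each line.

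The p53 protein binds a 10-base motif, and its strongest sites hold 2 such motifs in a row. The p53 response-element decamer was searched on both strands (it is palindromic) in RefSeq promoters (GRCm38.p6), from 250 bases before to 50 after each transcript start. Of the 10 genes, 8 matched an entry, with 11 windows, and 5 of these windows held the decamer, against 8.36% of all 32851 promoters. Zmat3 and Trp53inp1 were not matched. A 20-base double site, with at most 1 mismatch outside the cores, was found in 1 window, that of the upstream Cdkn1a start, against 0.0548% of all promoters. Mdm2, Ccng1, Bax and Trp53 windows held a single decamer each. These promoters are shown because the results below turn on their genes: Cdkn1a as the classical target, Trp53 itself, and Eda2r as the target that differed between genotypes. Each line gives the 250 bases before the start, 5′ to 3′ on the gene's strand, with the motif in capitals.
Cdkn1a, chr17:29090729-29090978, plus strand: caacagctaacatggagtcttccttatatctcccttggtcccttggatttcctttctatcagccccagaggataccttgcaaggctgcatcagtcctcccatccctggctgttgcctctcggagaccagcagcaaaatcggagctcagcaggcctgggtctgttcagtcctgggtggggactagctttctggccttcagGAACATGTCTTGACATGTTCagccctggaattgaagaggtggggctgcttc
Trp53, chr11:69580109-69580358, plus strand: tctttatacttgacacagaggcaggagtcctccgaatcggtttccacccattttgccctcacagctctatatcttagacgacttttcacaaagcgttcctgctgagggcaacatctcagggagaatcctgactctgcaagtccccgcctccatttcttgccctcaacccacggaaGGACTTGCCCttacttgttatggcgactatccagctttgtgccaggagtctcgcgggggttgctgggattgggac
Eda2r, chrX:97377210-97377459, minus strand: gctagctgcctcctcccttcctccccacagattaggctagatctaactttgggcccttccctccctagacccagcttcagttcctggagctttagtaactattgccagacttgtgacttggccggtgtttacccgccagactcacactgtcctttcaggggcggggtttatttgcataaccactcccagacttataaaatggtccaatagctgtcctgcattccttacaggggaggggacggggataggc
The capitals mark the 20-base double site that begins 51 bases before the Cdkn1a start and the decamer that begins 75 bases before the Trp53 start. A further decamer 73 bases before the Cdkn1a start was left in lower case. The second Cdkn1a window, that of Phlda3, the 3 of Bbc3 and that of Eda2r held no decamer, which says only that these letters are not in those windows. A match is a description of the sequence and was not tested for binding.

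Reads assigned to genes ranged from 15124888 to 20419830 per library. Values below are read counts divided by DESeq2 size factors (normalized counts), and 1 read is worth about 1 normalized count. Genes with at least 10 normalized counts in at least 5 lines were tested, 13089 in all, and a gene was called when its adjusted limma p was under 0.05. All 10 p53 genes passed this filter, 9 of them in every line and Eda2r only in the 5 KPCAf/f lines. Between genotypes 229 genes (1.75%) were called, 178 higher (1.36%) and 51 lower (0.39%) in KPCAf/f lines. A1620 stood apart in its trend with transcript length, with a slope of -0.65 on the log2 scale per doubling of length, against 0.10 to 0.15 in the KPCAf/f lines and -0.02 to 0.04 in the other 4 KPC lines. A1693, labelled pancreatic, had 2.70 normalized counts of the pancreatic factor Pdx1 and 10.8 of E-cadherin (Cdh1). Summed epithelial markers ranged from 6150 to 134256 in KPCAf/f lines and from 169521 to 366527 in KPC lines. The keratins Krt7, Krt8, Krt18 and Krt19 made up most of each sum. Other listed markers went the other way in KPCAf/f line A1809, which lay above every KPC line for Epcam (6720), Cldn4 (12503), Cldn7 (3170), Ocln (1314) and Esrp1 (2689). For Cdh1 and the keratins A1809 lay inside or below the KPC range. A3992 also lay above every KPC line for Cldn4 (362) and Ocln (914).

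Trp53, on chromosome 11 (69580359 to 69591873, plus strand, GRCm38), was detected in every line. It had 120, 153, 121, 173 and 771 normalized counts in KPCAf/f lines A1693, A1809, A1925, A2441 and A3992, against 110, 174, 157, 118 and 97.9 in KPC lines A1081, A1620, A1625, A2031 and A2032. A3992 stood far above the other 9 lines, whose genotypes overlapped throughout. The KPCAf/f mean was 267 ± 282 and the KPC mean was 131 ± 32.2 (SD, n = 5 each). This log2 difference, 0.62 with an SE of 0.50 and a 95% interval of -0.48 to 1.71, was not called (limma adjusted p = 0.582). An exact permutation test over the 252 splits of the lines gave a two-sided p of 0.278. Without A3992 the KPCAf/f mean was 142 ± 26.1 (n = 4) and the log2 difference was 0.12 (limma adjusted p = 0.874). Per kilobase of its longest transcript, Trp53 had 29.9 to 53 normalized counts in 9 lines and 235 in A3992. A gene-level count holds reads of a wild-type and of a missense transcript alike, so it does not check the Trp53 allele of any line.

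**Figure D1:**
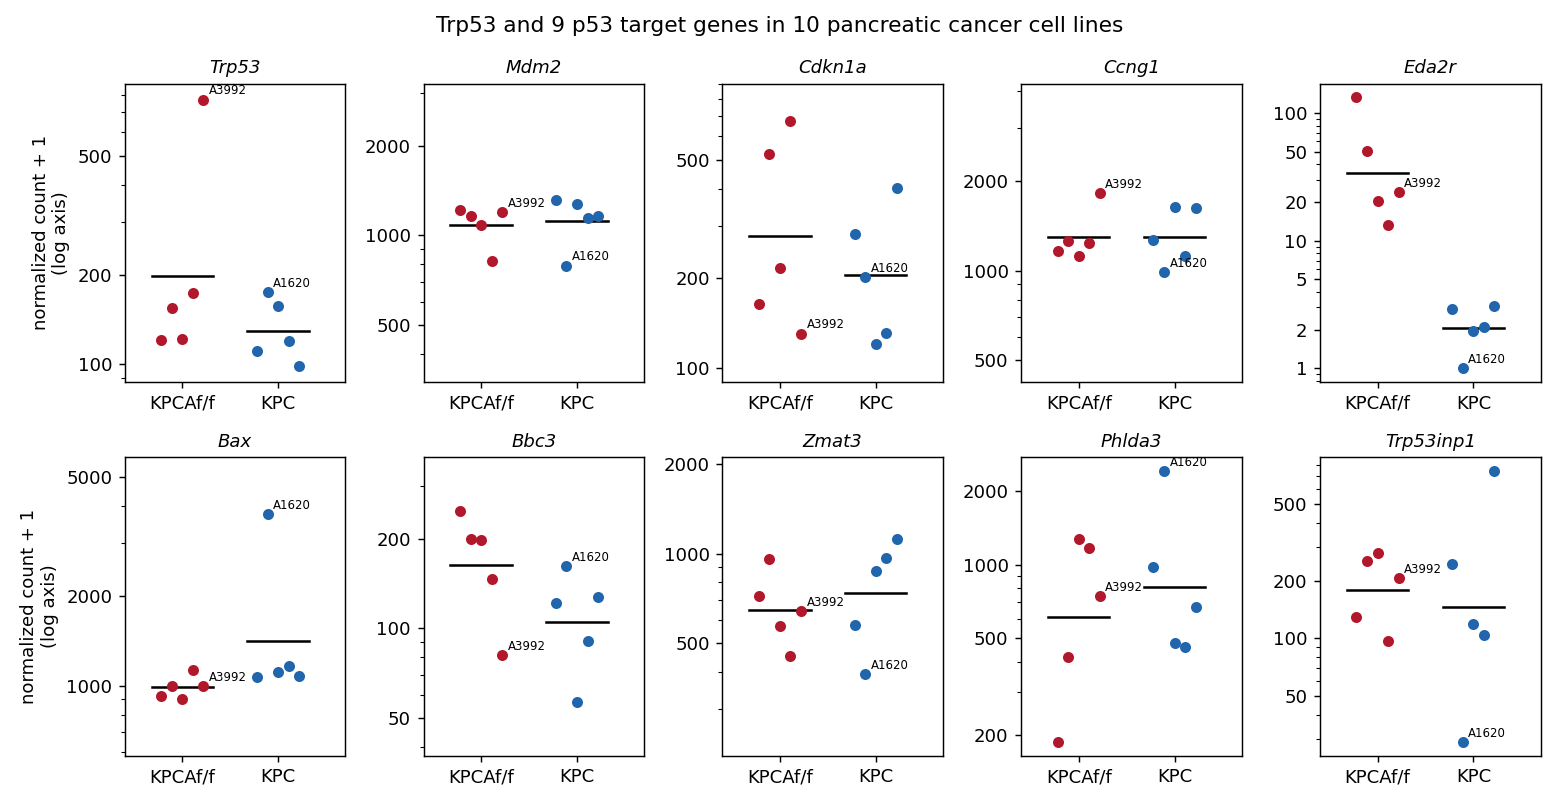
Normalized count + 1 of each of the 10 genes (log axes, each with its own range), with 1 point per line, KPCAf/f left and KPC right of each panel, and a bar at the mean of the log2 values (n = 5 lines). Trp53 in A3992 reached 771 normalized counts, and Eda2r is the panel in which the genotypes do not overlap.

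Mdm2 encodes the ligase that marks p53 for degradation and is itself a p53 target. KPCAf/f lines, in the order given for Trp53, held 1215, 1160, 1085, 818 and 1196 normalized counts, and KPC lines 1316, 791, 1270, 1143 and 1162. The lowest line of each genotype, A2441 and A1620, stood apart by a little, and the genotypes overlapped. With a log2 difference of -0.05 (SE 0.20, 95% interval -0.48 to 0.38), Mdm2 was not called (limma adjusted p = 0.927). A3992, with the most Trp53, ranked 4 of 10 for Mdm2. Mdm2 varied least of the 10 genes, with a coefficient of variation of 15.8% over the 10 lines, against 102% for Trp53.

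Ccng1 encodes cyclin G1, a p53 target that feeds back on MDM2. Its normalized counts were 1163, 1253, 1121, 1234 and 1816 in the KPCAf/f lines and 1263, 987, 1635, 1121 and 1624 in the KPC lines. A3992 was the highest line, a little above A1625 and A2032, and the other 4 KPCAf/f lines lay within the KPC range. The genotype means of 1318 ± 284 in KPCAf/f and 1326 ± 294 in KPC (SD, n = 5 each) differed by -0.00 on the log2 scale, with a 95% interval of -0.46 to 0.45 (limma adjusted p = 0.995).

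Cdkn1a encodes p21, the inhibitor of cyclin-dependent kinases through which p53 arrests the cell cycle. Among KPCAf/f lines it stood at 164, 521, 216, 672 and 130 normalized counts, against 280, 201, 119, 131 and 401 in the KPC lines. A2441 and A1809 were the highest lines, A3992 was the lowest KPCAf/f line, and the genotypes overlapped over most of their range. The log2 difference was 0.43 (SE 0.52, 95% interval -0.71 to 1.58; limma adjusted p = 0.713). A3992, with 130 normalized counts of Cdkn1a, ranked 9 of 10 lines. The Cdkn1a annotation shares 1046 bases with AC167363.2 on the opposite strand, so some of its reads could belong to either.

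Bax encodes a pore-forming effector of mitochondrial apoptosis. Counts of 922, 996, 903, 1129 and 997 were found in the KPCAf/f lines, and of 1067, 3759, 1110, 1168 and 1075 in the KPC lines. A1620 lay far above every other line, and of the KPCAf/f lines A2441 alone reached the range of the KPC lines. At -0.52 (SE 0.33) on the log2 scale, the difference was not called over all genes (limma adjusted p = 0.494), while the exact permutation p, not adjusted for other genes, was 0.0317. Without A1620 the KPC mean was 1105 ± 45.9 (n = 4) and the log2 difference was -0.16. After a correction of each library for transcript length, A1620 had 1761 normalized counts and the difference was -0.22 (limma adjusted p = 0.550). The Bax annotation shares 915 bases with Gm45808 on the same strand, so the assignment of its reads is uncertain.

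Bbc3 encodes PUMA, a BH3-only protein that starts apoptosis. Its normalized counts were 246, 199, 196, 145 and 80.2 in the KPCAf/f lines and 120, 160, 55.8, 89.4 and 127 in the KPC lines. A1693, A1809 and A1925 lay above every KPC line, and A3992 lay below 4 of the 5 KPC lines. Its log2 difference of 0.63 (SE 0.40, 95% interval -0.24 to 1.51) was not called (limma adjusted p = 0.482).

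Eda2r encodes a receptor of the tumour necrosis factor family for ectodysplasin A2 and lies on the X chromosome (97333840 to 97377216, minus strand). KPCAf/f lines held 132, 49.9, 19.4, 12.4 and 22.9 normalized counts of it, against 1.89, 0, 0.978, 1.12 and 2.06 in the KPC lines. Every KPCAf/f line lay above every KPC line, as was the case for 2.84% of all genes tested (the genotypes did not overlap in either direction for 4.53%), with A1693 the highest and KPC line A1620 listed at 0. Eda2r rose to 47.4 ± 49.6 in KPCAf/f lines, against 1.21 ± 0.824 in KPC lines (SD, n = 5 each), a log2 difference of 4.04 (SE 0.67, 95% interval 2.56 to 5.51; limma adjusted p = 0.0100). It was the 1 of 9 targets called between genotypes, against 1.75% of all genes, and it could only have been called higher, since it passed the filter through the KPCAf/f lines alone. For the same reason its genotypes could not overlap.

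In reads, Eda2r had 268 in the KPCAf/f libraries and 6 in the KPC libraries, a ratio per library read of 41.7 with an exact 95% interval of 18.9 to 115 that covers counting error alone. Without A1693 the KPCAf/f mean was 26.1 ± 16.4 (n = 4). With a pseudocount of 10 in place of 1, it was 2.01 on the log2 scale with a limma adjusted p of 0.0507, and the call was lost. All 5 KPC lines expressed Y-linked genes (summed 1521 to 3727 normalized counts) while the 5 KPCAf/f lines had 0 to 3.37, and Xist was at 3.60 in A1693 and between 5278 and 18451 in the other KPCAf/f lines, against 1.96 to 6.63 in KPC lines. Of 413 X-linked genes tested, 4 (0.969%) were called higher and 1 lower. Every comparison between genotypes here carries this split, so genotype and sex-linked expression cannot be told apart for Eda2r or for any other gene. A1693, the line with the most Eda2r, had little Xist and 0 Y-linked counts. Fibroblast and mesenchymal markers differed between genotypes as well. Of the 10 listed markers 6 were tested and all 6 were called higher, against 1.36% of all genes. However, 3 of them (Col1a2, Col3a1 and Pdgfrb) were under 10 in every KPC line and could only be called higher. In addition, the summed level of the list was 15599 to 96323 in KPCAf/f lines and 65.0 to 189 in KPC lines. Within the KPCAf/f lines A1693 had the highest sum and the most Eda2r, but A1809, with 49.9 normalized counts of Eda2r, had the lowest sum, close to that of A3992 (16659). The A1693 sum was mostly Col1a2 (71336 normalized counts, against 959 to 4019 in the other KPCAf/f lines). A1693 was the highest KPCAf/f line for Col3a1 (11775) and Prrx1 (7967) as well, but the lowest for Col1a1 (3259). Summed immune markers were 89.0 to 293 in KPCAf/f lines and 46.9 to 119 in KPC lines, carried mostly by Cd68 (36.1 to 293 in KPCAf/f lines and 31.3 to 70.1 in KPC lines) and Csf1r (0 to 185 in KPCAf/f lines and 0 to 59.6 in KPC lines). Summed endothelial markers were 12.6 to 677 in KPCAf/f lines and 12.4 to 440 in KPC lines, with Cdh5 at 644 in A2441 and 415 in A1081 and Erg at 0 in every line. The part of these lists in the Eda2r result was not tested, and in bulk RNA fewer cells of a type and less RNA per cell cannot be told apart.

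Phlda3 encodes a pleckstrin-homology protein that restrains AKT. KPCAf/f lines held 186, 417, 1271, 1166 and 739 normalized counts, against 978, 2416, 475, 459 and 668 in KPC lines. The extremes were KPCAf/f line A1693 at the low end and KPC line A1620 at the high end, and the genotypes overlapped. Between genotypes the log2 difference was -0.40 (SE 0.59, 95% interval -1.71 to 0.90; limma adjusted p = 0.770), and without A1693 it was 0.02, the opposite sign. Corrected for transcript length, A1620 had 1340 normalized counts of Phlda3.

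Trp53inp1 encodes a stress protein that promotes p53 activity and autophagy. Among KPCAf/f lines it stood at 128, 250, 278, 95.6 and 204 normalized counts, against 244, 27.8, 118, 103 and 743 in the KPC lines. The KPC lines A1620 and A2032 held the lowest and the highest value, so that all KPCAf/f values lay inside the KPC range. The log2 difference was 0.29 (SE 0.73, 95% interval -1.32 to 1.91; limma adjusted p = 0.867), and it was -0.29 without A1620.

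Zmat3 encodes an RNA-binding zinc-finger protein that acts on splicing. Its normalized counts were 721, 961, 570, 452 and 639 in the KPCAf/f lines and 575, 393, 871, 964 and 1118 in the KPC lines. The KPCAf/f values lay inside the KPC range, between A1620 at the low end and A2032 at the high end. A log2 difference of -0.18 (SE 0.32, 95% interval -0.87 to 0.52) was not called (limma adjusted p = 0.808). Its longest transcript, of 7797 bases, is the longest of the 10 genes. Corrected for transcript length, A1620 had 829 normalized counts, and A1925 (504) and A2441 (415) lay below every KPC line, the lowest of which was A1081 (543). The log2 difference was then -0.46 (limma adjusted p = 0.371), and it was -0.40 without A1620 and without the correction (limma adjusted p = 0.497).

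**Figure D2:**
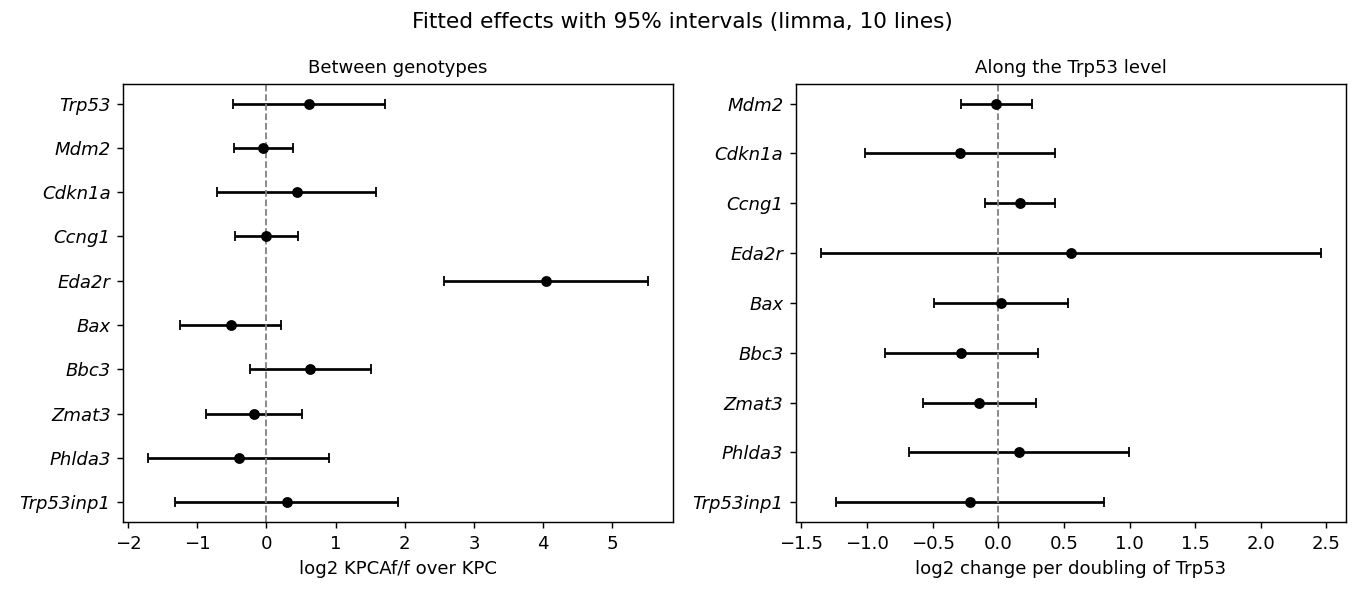
Left, log2 difference KPCAf/f over KPC of each gene on the log2(normalized count + 1) scale; right, log2 change of each target per doubling of Trp53. Points are limma estimates over 10 lines and bars are 95% intervals. Only the Eda2r interval on the left, 2.56 to 5.51, lies clear of 0.

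No target was called on the Trp53 level of the lines. In a limma fit of each gene on the log2 Trp53 level, 0 of the 9 targets were called, and 0 of 13088 genes (0%). At an unadjusted p under 0.05 there were 302 genes (2.31%) and 0 of the 9 targets. By other tools the fit called 0 genes with edgeR, 0 with limma-voom and 7 with DESeq2, none of them a target. Every target had a limma adjusted p of 0.9997. The estimates ran from -0.29 (Cdkn1a, 95% interval -1.02 to 0.43) to 0.55 (Eda2r, 95% interval -1.35 to 2.46) on the log2 scale per doubling of Trp53. A change in proportion to Trp53 would give 1. The upper ends of the 95% intervals of 8 targets lay below 1, from 0.25 (Mdm2, estimate -0.02) to 0.995 (Phlda3, estimate 0.16), and that of Eda2r lay above it. This count rests on A3992. Without it, 4 targets (Mdm2, Ccng1, Zmat3 and Trp53inp1) had an upper end below 1, and the estimates of Bax (1.04) and Phlda3 (1.17) were themselves above 1.

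Pearson correlations with Trp53 over the 10 lines ranged from -0.36 (Bbc3; Spearman rho -0.10; permutation p = 0.316) to 0.49 (Ccng1; Spearman rho 0.05; permutation p = 0.149). Their median over the 9 targets was -0.06, with 4 above and 5 below 0, against a median of 0.02 over all 13088 genes. Since A3992 holds most of the range of Trp53, the values were taken again without it. The median r over 9 lines was then -0.05, and the range was -0.73 (Trp53inp1; exact p = 0.0201) to 0.50 (Bax; exact p = 0.150). For Ccng1, r turned to -0.26 without A3992, so its positive value rests on that line. For Trp53inp1, the limma adjusted p without A3992 was 0.804 over all genes, and r was -0.59 (exact p = 0.106) over the 8 lines left when A2032, the line with the least Trp53, was also removed. Over those 8 lines the median r of the targets was -0.10, and Mdm2 had r = -0.70 (exact p = 0.0483), with the p again not adjusted over all genes. In all, 9 relations were computed in each of these 3 sets of lines.

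**Figure D3:**
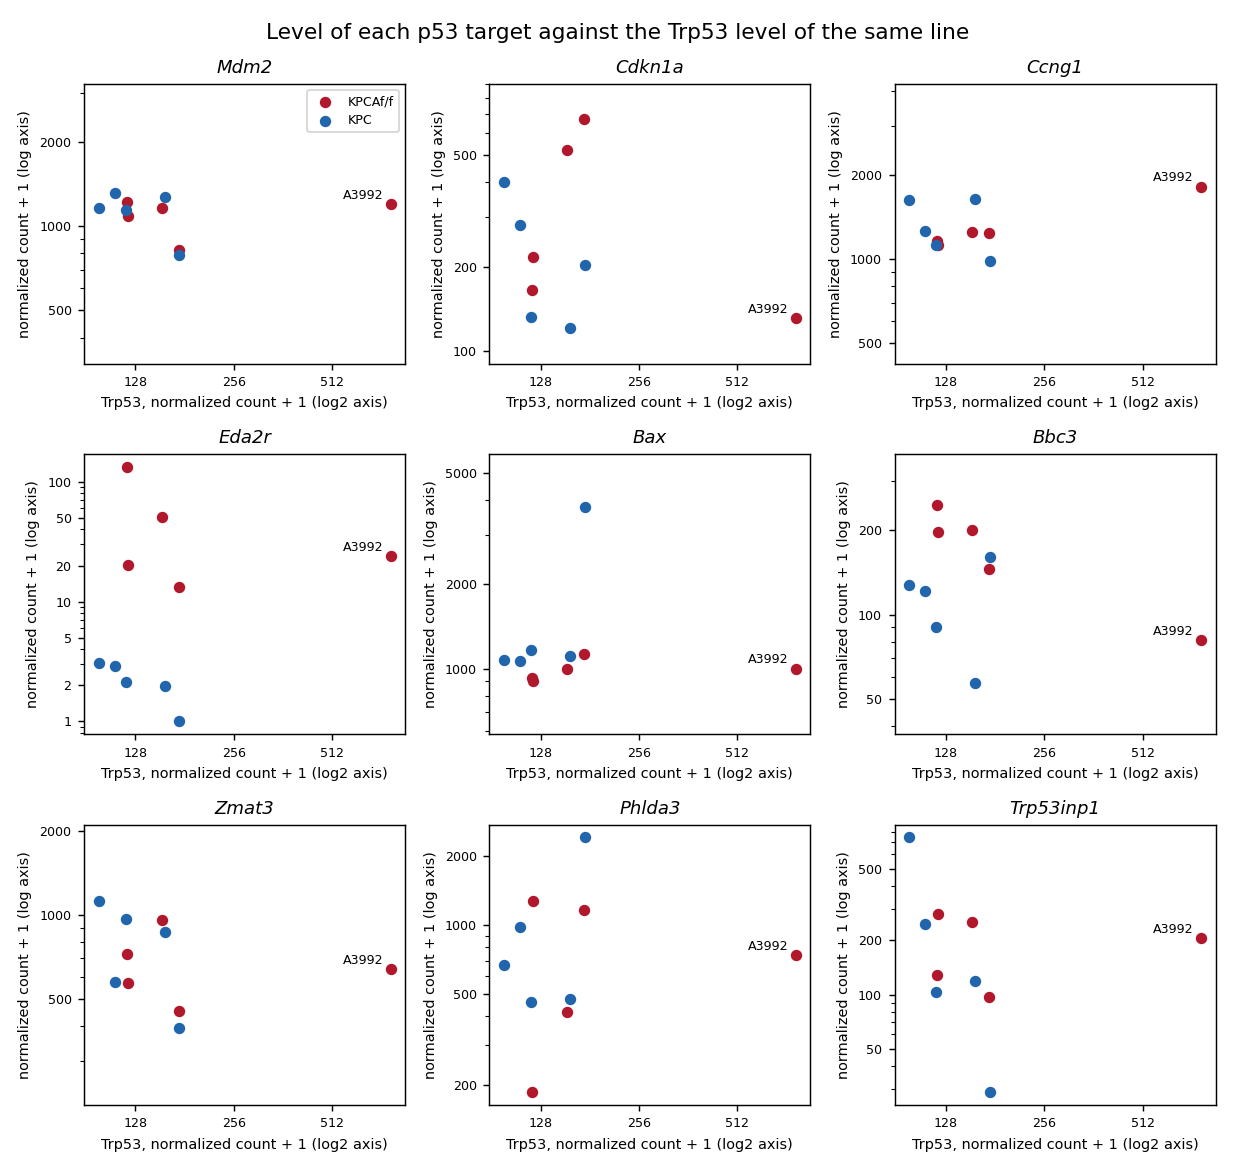
Normalized count + 1 of each target (vertical, log axis) against that of Trp53 (horizontal, log2 axis), 1 point per line, KPCAf/f red and KPC blue. A3992 stands alone at the right of each panel, at a target level within or, for Ccng1, just above that of the other 9 lines.

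A3992 gives the widest contrast in Trp53. Its Trp53 level was 6.39 times the median of the other 9 lines, and 442 genes (3.38%) were at least 4-fold above that median in A3992. Of the 9 targets, 8 lay inside the range of the other 9 lines, as did 83.5% of all genes, and Ccng1 lay above it, where A3992 was the highest line for 7.62% of all genes. Cdkn1a was at 0.600 and Bbc3 at 0.553 times the median of the other lines, both ranking 9 of 10. Mdm2 was at 1.03, Zmat3 at 0.886, Bax at 0.928, Phlda3 at 1.11, Ccng1 at 1.47 and Trp53inp1 at 1.60 times that median. Eda2r in A3992 ranked 3 of 10, and no ratio is given because the median of the other 9 lines, 5 of them KPC, was only 2.06 normalized counts. With 1 library of A3992, this set of values has no replicate check.

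**Figure D4:**
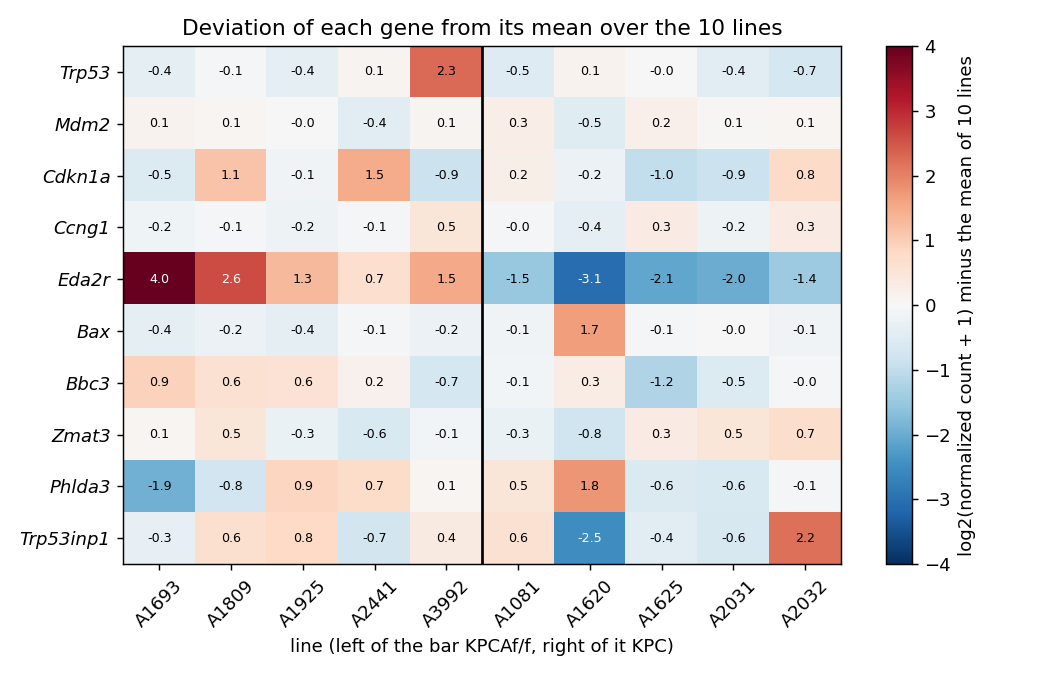
Log2(normalized count + 1) of each gene in each line minus its mean over the 10 lines, KPCAf/f lines left of the black bar and KPC lines right of it. The red Trp53 cell of A3992 has no matching column of red target cells, while A1620 holds the strongest cells for Bax and, among KPC lines, for Phlda3.

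The genes around Trp53 were looked at after the A3992 value had been seen, as a description. Of 41 tested genes within 500 kb of Trp53, 37 were below the median of the other 9 lines in A3992, with a median log2 deviation of -0.83, against 0.02 over all genes in A3992. In the other 9 lines this median lay between -0.20 and 0.29. Wrap53, whose start adjoins that of Trp53 on the opposite strand and which guides telomerase to Cajal bodies, had 405 normalized counts in A3992. Its mean was 370 ± 76.7 in KPCAf/f lines and 494 ± 166 in KPC lines (SD, n = 5 each; limma adjusted p = 0.536). The high Trp53 level of A3992 was not shared by most of these neighbours.

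**Figure D5:**
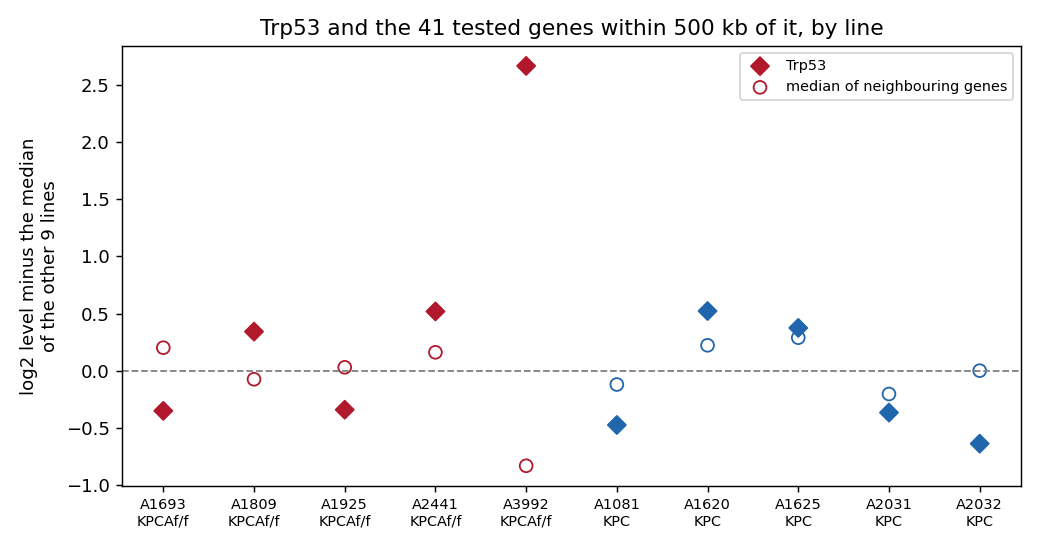
Log2 level minus the median of the other 9 lines, for Trp53 (diamonds) and as the median of the 41 tested genes within 500 kb of it (open circles), by line, KPCAf/f red and KPC blue. In A3992 Trp53 is at 2.67 and its neighbours are at -0.83.

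Correlations among the targets centred on 0. Over the 36 pairs of targets the median Pearson r across 10 lines was 0.00, from -0.73 (Bax with Trp53inp1) to 0.68 (Mdm2 with Zmat3), with 7 pairs above 0.5 and 8 below -0.5. Without A1620, 1 pair was above 0.5 and 5 were below -0.5. These correlations share the same 10 libraries and are given as a description. A1809 had 6 of the 9 targets above their mean over the lines and A2031 had 2, the highest and the lowest counts. A1620 was the lowest line for 5 targets and the highest for 2, Bax and Phlda3, whose longest transcripts of 1100 and 1435 bases are the shortest of the 10 genes.

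By likeness of pattern over the 10 lines, the genes closest to Trp53 were Hcn2 (Pearson r = 0.90), Serpinb9 (0.83), Nicn1 (0.81), Nsun6 (0.81) and Ovca2 (0.80). These rest largely on A3992: without it r was 0.58 for Hcn2, -0.09 for Serpinb9, 0.35 for Nicn1, 0.64 for Nsun6 and 0.58 for Ovca2. The genes closest to Cdkn1a were Cxcl2 (0.91), Ficd (0.89), Atg7 (0.89), Kbtbd3 (0.88) and Ppfia3 (0.86), and those closest to Mdm2 were Nedd1 (0.95), Xpr1, Epb41, Alg11 and Map3k13 (0.92 to 0.93). No p53 target of the lists used here was among these 15 genes. With 9 and 39 targets tested among 13089 genes, few or none would be expected in so short a list.

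Of a wider list of 42 p53 targets, 39 were tested. Between genotypes 0 were called by limma, edgeR or limma-voom and 2 by DESeq2 (Dram1 and Steap3). DESeq2 called 732 of all 13089 genes and made 25% false calls on simulated data. At an unadjusted limma p under 0.05, 5 of the targets were higher and 4 lower, against 14.6% of all genes in either direction. The median log2 difference was -0.03, against -0.01 over all genes. Ak1, an adenylate kinase, averaged 368 ± 466 normalized counts in KPCAf/f lines and 41.8 ± 21.5 in KPC lines (log2 difference 2.65; limma adjusted p = 0.0717), with A2441 at 1201. DESeq2 gave no adjusted p for Ak1, so that tool could not call it. Dram1, which p53 uses to induce autophagy, averaged 87.1 ± 51.6 in KPCAf/f lines and 14.9 ± 9.53 in KPC lines (2.36; limma adjusted p = 0.0961), with A3992 the lowest KPCAf/f line at 17.6. Sesn2, a stress-induced inhibitor of mTORC1, averaged 527 ± 179 in KPCAf/f lines and 287 ± 68.7 in KPC lines (0.83; limma adjusted p = 0.224). Steap3, a ferrireductase, averaged 661 ± 363 in KPCAf/f lines and 222 ± 95.2 in KPC lines (1.47; limma adjusted p = 0.240). On the Trp53 level, 0 of the 39 were called by any of these tools and 0 had an unadjusted p under 0.05. The smallest p-values belonged to Rap2b (-0.35), Ercc5 (-0.23), Plk3 (-0.35) and Ddit4 (-0.57 on the log2 scale per doubling of Trp53), all with a limma adjusted p of 0.9997.

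Of 22 regulators of p53, 19 were tested and 0 were called between genotypes by limma, edgeR, limma-voom or DESeq2, with 0 at an unadjusted limma p under 0.05. The smallest p-values belonged to Rchy1 (log2 difference -0.37; limma adjusted p = 0.385), Trim24 (0.36; 0.424) and Mdm4 (0.34; 0.461). Mdm4, the partner of MDM2 that blocks p53 activity, averaged 1230 ± 110 normalized counts in KPCAf/f lines and 994 ± 271 in KPC lines. Cdkn2a, which encodes the MDM2 inhibitor ARF and the cell cycle inhibitor p16 from 1 locus, averaged 5954 ± 2709 in KPCAf/f lines and 4530 ± 2825 in KPC lines (log2 difference 0.46; limma adjusted p = 0.591). The p53 family members Trp63 and Trp73 were too low to be tested, at 0 to 24.6 and 0 to 0.843 normalized counts in KPCAf/f lines and at 0 to 2.06 and 0 to 1.12 in KPC lines.

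The p53–p21–DREAM axis represses cell cycle genes, and its 20 listed genes were all tested. Between genotypes 0 were called by limma, edgeR, limma-voom or DESeq2, and 4 were lower at an unadjusted p under 0.05, against 14.6% of all genes in either direction. The estimate was below 0 for 19 of the 20, with a median log2 difference of -0.28, against -0.01 over all genes, and for 15 of the 20 after quantile normalization (median -0.15). These estimates share the same 10 libraries, so they are not 20 separate results, and the count was not tested. Rrm2, a subunit of ribonucleotide reductase, averaged 4419 ± 3030 normalized counts in KPCAf/f lines and 9440 ± 2138 in KPC lines (log2 difference -1.28; limma adjusted p = 0.126). Without A2441, the KPCAf/f line with the most Rrm2, Rrm2 differed by -1.61 on the log2 scale and was called (limma adjusted p = 0.0113). Kif23, a kinesin of cytokinesis, averaged 3054 ± 1148 in KPCAf/f lines and 5060 ± 1358 in KPC lines (-0.75; limma adjusted p = 0.220). Mki67, a marker of proliferating cells, averaged 6421 ± 1611 in KPCAf/f lines and 7373 ± 2344 in KPC lines (-0.17; limma adjusted p = 0.776), and its estimate turned to 0.018 after quantile normalization. Along the Trp53 level 0 of the 20 were called by any of these tools, with estimates above 0 for 11 and below 0 for 9. Without A3992 they were above 0 for 16 and below 0 for 4 (median 0.32, against 0.01 with it), without A2032 above 0 for 7 and below 0 for 13, and with genotype as a covariate above 0 for 16 and below 0 for 4.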

How the data were processed

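The labels assign each of the 10 libraries to a genotype. The deposited signal is a table of gene counts that the authors divided by DESeq2 size factors (normalized counts), 1 column per line. The submitters' processing notes name DESeq2 1.14.1 (R 3.3.2) for this step, after featureCounts of Subread 1.5.0p3, STAR 2.5.2b, Trimmomatic 0.36 and bcl2fastq 1.8.4. The builds GRCm38.p5 and mm9 are both listed there, with no role. Libraries were stranded mRNA, per the labels' protocols. Which annotation and strand setting the counting used is not stated, so reads of overlapping genes are uncertain. Dividing out what 1 read is worth recovered whole reads within 0.001 read for 100.0% of values in each library. The recovered counts differed between lines well beyond sampling noise (chi-square per degree of freedom 55.6 or more between any pair). This check found no duplicated library, but it cannot tell whether the lines came from different mice. Each line was treated as 1 replicate. This depth leaves counting error small for most genes named. It is larger at low values, such as those under about 10 normalized counts and Eda2r in KPCAf/f lines A2441, A1925 and A3992 (11, 23 and 26 reads).

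From these values log2(normalized count + 1) was computed and tested with limma 3.58.1 (intensity trend, two-sided, R 4.3.3), with Benjamini-Hochberg adjustment over the 13089 genes with at least 10 normalized counts in at least 5 lines. This scale understates the change of low genes. A second fit used the log2 Trp53 level as a continuous term, without Trp53 itself. All 10 genes were also compared with exact permutation tests over 252 splits, where genes other than Eda2r and Bax had a p of 0.135 or more. Eda2r had the smallest possible p (0.00794). This p followed from its passing the filter through the 5 KPCAf/f lines alone and adds no support. Correlations were tested with 100000 permutations, or exactly for 9 or fewer lines. Correlations are on the log2(normalized count + 1) scale. On simulated data with 13089 genes the genotype fit recovered 51% of genes changed 4-fold and 93% of those changed 16-fold, with 6.49% false calls. The Trp53 fit on 13088 genes recovered 81% of genes changed 4-fold and 95% of those changed 16-fold per doubling of Trp53, with 13.3% false calls. A smaller change, such as one in proportion to Trp53, was not simulated, so these shares do not say how often it would be found. Other settings were 2 pseudocounts, 2 filters, quantile and TMM scaling, line weights, a loess correction for transcript length, genotype as a covariate of the Trp53 fit, lines left out, and limma-voom, edgeR 4.0.16 and DESeq2 1.42.0 on the recovered whole-read counts. A combined length correction and removal of A1620 was added after the data were seen. Positions and transcript lengths come from GENCODE M21 (GRCm38), and promoters from RefSeq. Genes of the wider lists are named by smallest p (4 targets per fit, 3 regulators, 2 cell cycle genes) beside Mdm4, Cdkn2a, Wrap53, Trp63, Trp73 and Mki67, which are always given, and the 5 genes most like Trp53, Cdkn1a and Mdm2. The members and all lists were chosen with earlier results of these data known. Figures were drawn with matplotlib 3.10.9.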

Additional observations from a re-analysis of the deposited data

Results flagged for a closer look

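In groups of 5 lines, single lines were looked for whose gap to the nearest other line was over 0.71 of the group's whole range, for 28 genes named above and both genotypes. Of the 56 groups, 11 held such a line. Chance flags about 1 in 20 groups, but the 11 are not read against it, since the high Trp53 of A3992 was known beforehand and 3 of them rest on 1 or 2 reads. KPCAf/f line A3992 was far above the other 4 KPCAf/f lines for Trp53 (771 normalized counts, others 120 to 173) and for Ccng1 (1816, others 1121 to 1253). A1620 was far above the other 4 KPC lines for Bax (3759, others 1067 to 1168), Phlda3 (2416, others 459 to 978) and Cdkn2a (9496, others 2516 to 3973). KPCAf/f line A2441 was far above the other 4 for Ak1 (1201, others 129 to 182) and Rrm2 (9695, others 2141 to 4109). KPC line A2032 was far above the other 4 for Ddit4 (1717, others 220 to 526). Trp63 in KPC line A2032 (2.06), Trp73 in KPCAf/f line A1925 (0.843) and Trp73 in KPC line A2031 (1.12) stood against 0 in the other lines and rest on 1 or 2 reads. No explanation was tested for these values.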

How the results depend on the processing

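No paired analysis was possible because the labels and columns give the lines names of their own and no shared replicate numbers. Trp53 between genotypes kept its sign and passed under none of the 22 settings that gave an adjusted p. DESeq2 gave no adjusted p for Trp53. The log2 difference ran from 0.12 to 1.02, and from 0.12 to 0.79 with 1 line left out. The smallest adjusted p, 0.419, was that of edgeR. The number of targets called was 1 throughout, except 0 with a pseudocount of 10 and 0 with a mean of at least 100, a filter that leaves Eda2r out; with 1 line left out it was 1. The number of genes called between genotypes was 732 with DESeq2 (which made 25% false calls on simulated data), 586 with line weights, 105 with limma-voom, 131 with a mean of at least 100, and 152 to 318 with 1 line left out (152 without A1925). On the Trp53 level 0 targets were called under all settings, and genes called were 7 with DESeq2, 25 with no filter and 0 to 1 with 1 line left out (1 without A1693). The median r of the targets stayed between -0.21 and 0.01 (-0.10 to 0.01 with 1 line left out); tools that fit counts give no r.

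Signs that turned belong to estimates that were called under no setting. Between genotypes these were Ccng1 with quantile normalization (0.032) and TMM scaling (0.00074), Mki67 with quantile normalization (0.018), Phlda3 with line weights (0.46), without A1620 and A1693 (0.42) and with length correction without A1620 (0.022), and Trp53inp1 with edgeR (-0.36), DESeq2 (-0.37), without A1620 and A1693 (-0.18) and with length correction without A1620 (-0.31). With 1 line left out, Mdm2 ranged from -0.17 to 0.056, Ccng1 from -0.12 to 0.079, Phlda3 from -0.67 to 0.024 and Trp53inp1 from -0.29 to 0.88. Per doubling of Trp53, without A3992 and A2032 Plk3 was at 0.041, Cdkn1a at 1.28 and Eda2r at -1.80. Eda2r was at -0.13 with edgeR, -0.12 with DESeq2 and -0.48 with genotype as a covariate, and Bax at -0.011 with line weights, -0.027 without A1620 and A1693 and -0.0019 with length correction without A1620. With 1 line left out, estimates ranged from -0.28 to 0.043 for Ercc5, -0.39 to 0.030 for Plk3, -0.57 to 0.0065 for Mdm2, -0.36 to 0.44 for Cdkn1a, -0.21 to 0.22 for Ccng1, -0.37 to 0.86 for Eda2r, -0.015 to 1.04 for Bax and -3.18 to 0.051 for Trp53inp1. Eda2r between genotypes kept its call with each line left out (log2 3.54 to 4.37; limma adjusted p 0.0114 to 0.0307). Dram1 passed with DESeq2 (adjusted p = 0.00261), line weights (0.0329) and without A3992 (0.0223), Ak1 with line weights (0.0395) and Steap3 with DESeq2 (0.0403). Of the wider target list, Kitl also passed with line weights and without A1620 and A1693, and Ptprv passed with no filter on low values. The cause was not tested. With 5 lines per genotype, the self-test recovered 51% of 4-fold differences, and Eda2r in KPC lines rests on 6 reads.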
